A study of Mus musculus with 32 samples.

Results

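Genes of the Bcl2 family were described across CD8+ T cells from 8 sources. They were 10 rows chosen by gene name out of 46517 genes in the table of expression values: the protective members Bcl2, Bcl2l1, Mcl1 and Bcl2a1b, the pore-forming effectors Bax and Bak1, and the BH3-only members Bcl2l11, Bid, Bbc3 and Pmaip1. All 10 were found, and all 10 reached 1 TPM (a level corrected for transcript length and scaled to the same total in every library) in at least 4 libraries, which was the filter for testing.

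The cells were Pmel CD8+ T cells carrying the congenic marker Thy1.1. Pmel cells bear a transgenic T cell receptor that recognises a peptide of the melanocyte protein gp100, so they respond to melanoma and to normal pigment cells. All 32 libraries, naive ones included, carry the same labels for strain (C57BL/6), age (16 weeks) and disease state (vitiligo associated with melanoma, the loss of pigment that accompanies an immune response to the tumor). There were 4 libraries in each of 8 groups: naive cells (source: spleen), the lymph node draining the tumor at day 12, lymph node memory cells, and Pmel cells of spleen, of skin, of lung, of liver and of the tumor. Lymph node memory, skin, lung and liver were taken 45 days after tumor surgery by the series design; no source used here gives a time for naive, spleen or tumor cells. The labels do not say that each library came from a separate animal, so p-values measure the spread between these libraries, which may in part be technical. Lymph nodes were dissociated mechanically, whereas skin, lung and liver were digested with enzymes, so tissue and preparation cannot be told apart.

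The Bcl2 family decides whether the outer mitochondrial membrane stays intact. Bax and Bak1 open it and release cytochrome c, which starts the caspase cascade. Bcl2, Bcl2l1 (Bcl-xL), Mcl1 and Bcl2a1 (A1) hold the effectors in check, and the BH3-only proteins Bcl2l11 (Bim), Bid, Bbc3 (Puma) and Pmaip1 (Noxa) neutralise these guardians or activate the effectors directly. In T cells, interleukin 7 sustains Bcl2 in naive and memory cells, antigen receptor signalling raises A1 and Bcl-xL, and Bim removes many cells as a response contracts.

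The libraries differed in how purely they read as T cells. The summed level of 16 T cell identity genes, none of them absent from any group, ran from 37440 to 43500 TPM in naive cells, from 11890 to 32030 TPM in spleen, from 5573 to 34270 TPM in skin and from 3320 to 28080 TPM in liver. It was under 0.5 of the median over all libraries (28312 TPM) in 6 libraries: spleen 4, skin 4, liver 2, liver 3, liver 4 and tumor 4. Summed levels of 10 monocyte and macrophage genes ran from 2.47 to 3.63 TPM in naive cells, from 451 to 4249 TPM in spleen, from 23.8 to 6360 TPM in skin, from 568 to 8472 TPM in lung, from 384 to 13420 TPM in liver and from 98.1 to 213.9 TPM in tumor. Summed levels of 10 neutrophil genes reached 14.06 TPM in naive cells, 4482 TPM in spleen, 2956 TPM in lung and 9876 TPM in liver; Elane and Ngp, 2 genes of immature neutrophils, were at 0 in every lung library. Summed levels of 8 B cell genes ran from 842 to 998 TPM in naive cells, from 1514 to 18000 TPM in spleen and from 138.9 to 47390 TPM in lung, and the highest value, in lung 3, was above that library's T cell identity sum of 15805 TPM. Lung 3 also held 8184 TPM of 7 hepatocyte genes and 3260 TPM of 5 lung epithelial genes. Summed levels of 6 melanocyte and melanoma genes ran from 359 to 844 TPM in tumor and from 6.45 to 17.98 TPM in spleen. Bcl2a1, Mcl1 and Bax are also expressed by myeloid cells, and the part of those or other cells in the values below was not tested. Leaving out the 6 libraries is not such a test: it keeps skin 3, lung 3 and lung 4, with monocyte and macrophage sums of 6360, 6694 and 8472 TPM, and drops skin 4 and tumor 4, with 23.8 and 213.9 TPM. Less RNA of a gene per cell and fewer cells expressing it cannot be told apart in bulk libraries. Liver 2 had 10732 genes above 0, the fewest of all libraries, and listed Bcl2, Bcl2l11, Bak1 and Bid at 0.

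Bcl2a1b belongs to a cluster of near-identical copies, and sequence is shown first for that reason. On mouse build GRCm38 (GENCODE vM21), Bcl2a1b lies at chr9:89199209-89207827 on the plus strand, Bcl2a1a at chr9:88956900-88962419 on the plus strand, Bcl2a1d at chr9:88723285-88731914 on the minus strand and Bcl2a1c at chr9:114330135-114330578 on the plus strand. The upstream DNA of 3 copies, taken from RefSeq promoter windows of GRCm38.p6 and trimmed of bases annotated as untranslated region, reads as follows 5′ to 3′ on the gene's strand; a capital marks a base that differs from Bcl2a1b.
Bcl2a1b, chr9:89199023-89199164: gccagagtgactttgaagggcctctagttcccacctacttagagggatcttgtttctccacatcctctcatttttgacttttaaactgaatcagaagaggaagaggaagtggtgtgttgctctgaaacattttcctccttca
Bcl2a1a, chr9:88956714-88956855: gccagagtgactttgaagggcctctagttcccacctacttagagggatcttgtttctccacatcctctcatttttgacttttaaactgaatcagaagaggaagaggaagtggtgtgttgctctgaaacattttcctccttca
Bcl2a1d, chr9:88731915-88732050: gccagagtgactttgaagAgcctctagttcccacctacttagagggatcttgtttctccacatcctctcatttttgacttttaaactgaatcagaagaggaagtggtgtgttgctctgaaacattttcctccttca
Bcl2a1a was identical to Bcl2a1b at 142 of 142 bases. Bcl2a1d matched it at 135 of 136 aligned bases and lacked 6 bases of it. All 3 stretches hold one match to TGANTCA, searched on both strands, a loosened form of the AP-1 letters that allows any base at the centre. The match reads tgaatca in all 3. Of all 32851 promoter windows of the same full length, 7.81% hold a match to the loosened form. The transcripts were as alike: Bcl2a1b and Bcl2a1d were identical at 810 of 817 aligned bases (99.1%), and Bcl2a1b and Bcl2a1a at 802 (98.2%). Of the 768 stretches of 50 bases in the Bcl2a1b transcript, 442 (57.6%) also occur in another copy, so the split of reads between copies is uncertain and depends on the counting, which no source used here gives.

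A different set of letters was shared by a pair of BH3-only genes. TGTTTAC, the core bound by FOXO factors, was found on either strand in the windows of Bcl2l11 and Bbc3, in 2 of the 14 windows held for the other 9 members (Pmaip1 was not included), against 3.65% of all windows. The stretches were cut around the match, end before the start site and hold 0 bases annotated as untranslated region. They are given 5′ to 3′ with the match in capitals, which in Bcl2l11 reads on the opposite strand.
Bbc3, chr7:16310034-16310160: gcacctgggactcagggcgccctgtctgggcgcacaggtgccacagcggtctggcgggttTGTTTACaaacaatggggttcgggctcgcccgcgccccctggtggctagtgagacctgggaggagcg
Bcl2l11, chr2:128125788-128125877: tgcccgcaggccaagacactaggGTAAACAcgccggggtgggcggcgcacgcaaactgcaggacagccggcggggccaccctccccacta
The Bbc3 stretch lies inside the annotated gene, upstream of an internal start site, and that of Bcl2l11 lies before the gene. The first base of the match stood 167 bases before the start site of one Bbc3 transcript and 227 bases before that of Bcl2l11. The NF-kappaB letters GGGNN followed directly by TTNCC were found in 4 of the 14 windows (4.79% of all windows), belonging to Bcl2l11, Bcl2l1, Mcl1 and Bbc3, and the STAT letters TTCNNNGAA in 0 of 14 (8.3% of all windows). A match is a description of the letters and not a mapped binding site.

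Across the 8 groups, 7 of the 10 members differed by limma's F test with Benjamini-Hochberg adjustment over 19738 genes, where 46.9% of all genes tested did. The adjusted p was 1.57e-09 for Bcl2a1b, 2.96e-07 for Pmaip1, 3.36e-07 for Bbc3, 0.000657 for Bcl2, 0.00779 for Bcl2l1, 0.0167 for Bak1 and 0.046 for Bid. Bcl2l11 (0.0624), Mcl1 (0.304) and Bax (0.448) did not pass. The call for Bid was lost with no filter, a pseudocount of 0.1, quantile normalization or without the 6 libraries low in T cell identity genes. That for Bak1 was lost with a pseudocount of 0.1, and with a filter of 5 TPM Bak1 was not tested (highest level 4.69 TPM). Over the 28 pairs of groups, Bbc3 differed in 18, Pmaip1 in 16, Bcl2a1b in 12, Bcl2 in 7, Bid in 4, and Bak1 and Bcl2l1 in 3 each, while Bcl2l11, Mcl1 and Bax differed in 0 at an adjusted p under 0.05. The share of all genes called in these pairs ran from 0.111% (lung against spleen) to 37.1% (liver against naive). Differences below are in log2(TPM + 1), with their standard error (SE) and limma's adjusted p; TPM values are levels, and gene positions are on GRCm38 from GENCODE vM21.

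**Figure D1:**
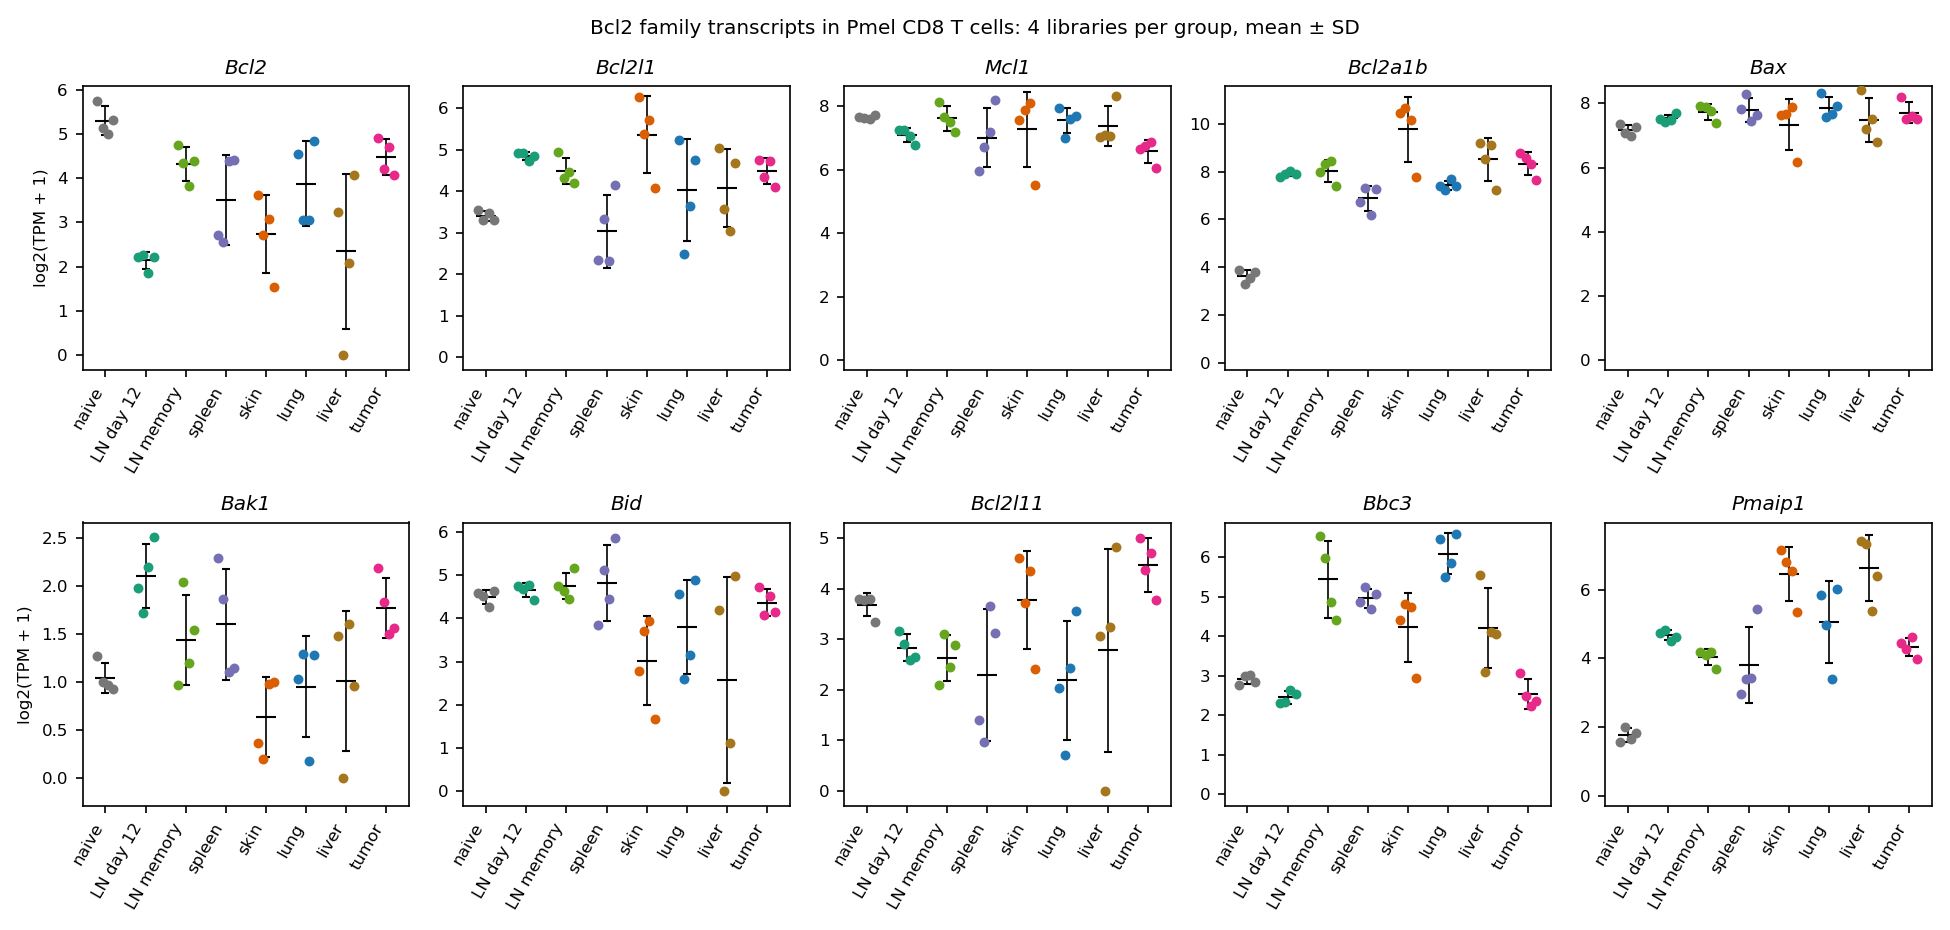
Levels of the 10 members in log2(TPM + 1) on the vertical axes, which differ in scale between panels, for 4 libraries (points) in each of 8 groups, with the mean (wide bar) and SD (capped line). Bcl2a1b and Pmaip1 were lowest in naive cells, Bbc3 was low in naive, day 12 lymph node and tumor cells, and Bax and Mcl1 stayed high in all 8 groups.

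Among the protective members, Bcl2 (chr1:106538178-106714274, minus strand) was highest in naive cells and lowest in the day 12 lymph node. Naive libraries held 53, 34.5, 31.1 and 39.4 TPM, and day 12 libraries 3.67, 3.81, 2.61 and 3.66 TPM. Lymph node memory libraries held 25.9, 19.6, 13.2 and 20.02 TPM. These 3 groups did not overlap: memory cells lay between naive and day 12 cells. Tumor libraries held 29.3, 17.6, 25.3 and 15.8 TPM, and skin libraries 11.4, 5.6, 7.47 and 1.90 TPM, with every tumor library above every skin library. Spleen (5.52, 4.89, 19.97 and 20.3 TPM) and lung (22.6, 7.35, 7.35 and 27.9 TPM) were each split into a low and a high pair of libraries. Liver held 8.48, 0, 3.21 and 15.8 TPM. In the order of group means, naive, tumor, lymph node memory, lung, spleen, skin, liver and day 12 lymph node, no step between neighbours passed the test.

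Bcl2a1b, the A1 copy with most of the signal, was lowest in naive cells, where Bcl2 was highest. Its Pearson r with Bcl2 was -0.658 over the 8 group means and 0.071 within groups, given as descriptions. Its level was 13.8, 8.90, 10.6 and 12.8 TPM in naive cells, 219.5, 236, 258 and 239.9 TPM in the day 12 lymph node, and 254, 316, 346 and 168 TPM in lymph node memory. Naive cells were apart from every other group, with no overlap. Skin was the highest group, at 1394, 1640, 1157 and 216 TPM; its 3 high libraries exceeded all others of the series, and the fourth, skin 4, lay within the range of other tissues. Liver libraries held 585, 373, 554 and 151 TPM, tumor libraries 443, 379, 319 and 200.3 TPM, lung libraries 168, 151, 206 and 167 TPM, and spleen libraries 105, 158, 72.3 and 154 TPM. The order was skin, liver, tumor, lymph node memory, day 12 lymph node, lung, spleen and naive, and of the 7 steps between neighbours only spleen to naive passed (3.25, SE 0.45, adjusted p = 1.45e-05).

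The other copies were examined because reads can be split between them. Bcl2a1d had levels of 1.62 to 2.48 TPM in naive cells, 188 to 210.1 TPM in the day 12 lymph node, 29.9 to 69.6 TPM in spleen, 199.8 to 1039 TPM in skin and 176 to 346 TPM in tumor. It followed Bcl2a1b over the 32 libraries (Pearson r = 0.968, a description over libraries that share groups and reads). Bcl2a1c was at most 0.17 TPM in naive cells and 7.03 to 19.4 TPM in skin. Bcl2a1a did not follow the others (r = 0.225 with Bcl2a1b): it was at most 0.48 TPM in naive and day 12 cells and reached 35.8 TPM in spleen 4, 18.8 TPM in skin 3, 48.7 TPM in lung 3 and 37.7 TPM in liver 3. In those 4 libraries the summed monocyte and macrophage genes were 4249, 6360, 6694 and 10490 TPM. The sum was higher still in liver 2 (13420 TPM), where Bcl2a1a was listed at 0, and was 8472 TPM in lung 4 with 6.23 TPM of Bcl2a1a and 1498 TPM in lung 2 with 17.6 TPM. The part of these cells in the Bcl2a1a level was not tested. With the 4 copies summed, a choice made after seeing the data, the differences that passed for Bcl2a1b passed again, at 4.92 for day 12 lymph node against naive (adjusted p = 2.46e-09), 3.61 for spleen against naive (1.58e-06), 3.10 for skin against spleen (1.51e-05) and 1.52 for liver against spleen (0.023).

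**Figure D2:**
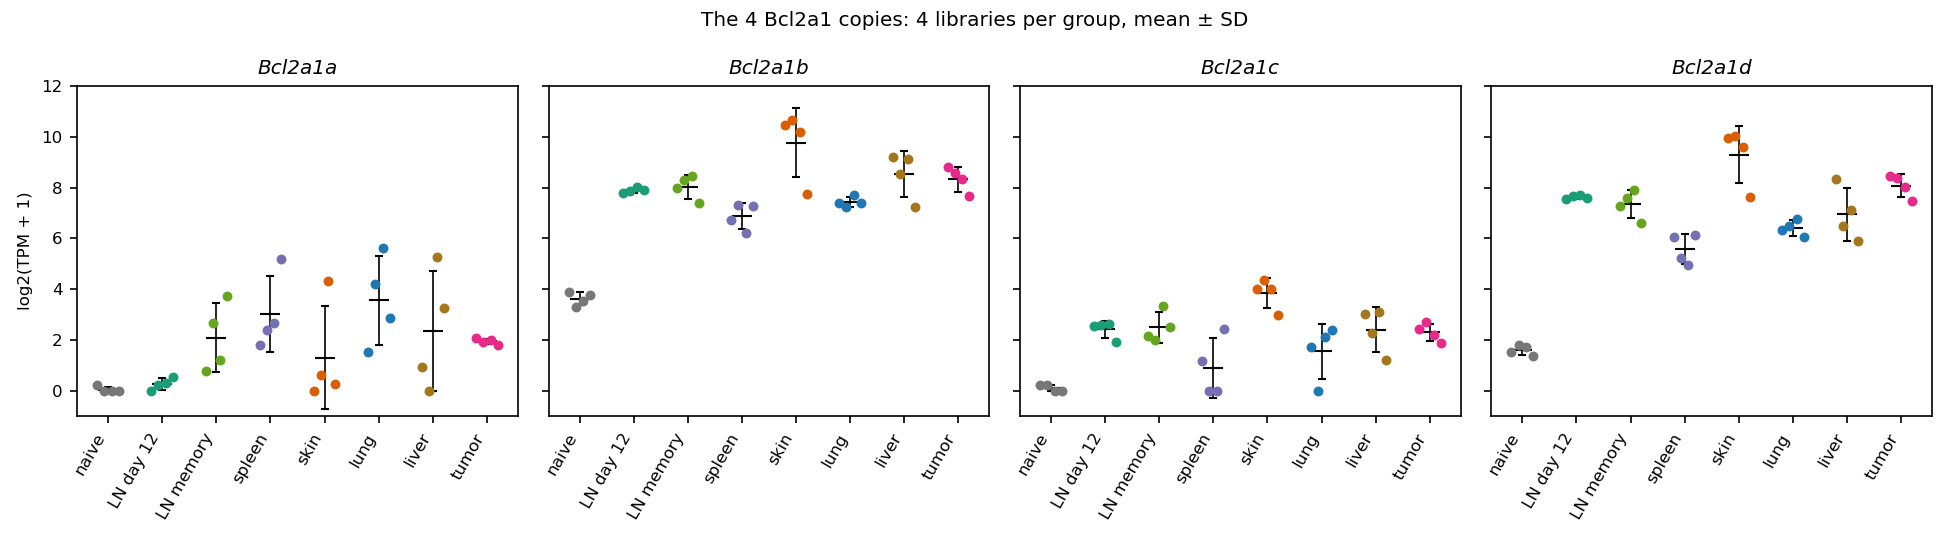
Levels of Bcl2a1a, Bcl2a1b, Bcl2a1c and Bcl2a1d in log2(TPM + 1), on one common vertical scale, in 4 libraries (points) of each of 8 groups, with mean (wide bar) and SD (capped line). Bcl2a1b and Bcl2a1d were both lowest in naive cells and highest in skin, whereas Bcl2a1a was scattered within spleen, skin, lung and liver.

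Bcl2l1 (chr2:152780668-152831728, minus strand) was highest in skin, at 76.4, 40.7, 51.4 and 15.9 TPM, and lowest in spleen, at 4.11, 9.09, 3.97 and 16.7 TPM. Skin and spleen overlapped only through skin 4 and spleen 4, the library lowest in T cell identity genes in each group. Naive libraries held 8.84 to 10.7 TPM and day 12 libraries 25.4 to 29.6 TPM, without overlap. Lymph node memory (17.5 to 29.7 TPM) and tumor (16.1 to 26.2 TPM) had nearly the same mean, and lung (4.59 to 36.9 TPM) and liver (7.19 to 32.2 TPM) spread widely.

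Mcl1 (chr3:95658788-95663176, plus strand), a short-lived guardian needed by T cells at most stages, was abundant throughout. Its mean level was 199.6 ± 7.01 TPM in naive cells (SD, n = 4), 136 ± 20.3 TPM in the day 12 lymph node, 200.3 ± 55.9 TPM in lymph node memory, 149 ± 98.4 TPM in spleen, 186 ± 100.4 TPM in skin, 191 ± 47.9 TPM in lung, 179.7 ± 93.7 TPM in liver and 96.6 ± 21.6 TPM in tumor. None of the 28 pairs differed. Libraries low in T cell identity genes had the extremes: 44.8 TPM in skin 4, 288 TPM in spleen 4 and 320.1 TPM in liver 4.

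The make-up of the 4 protective transcripts differed between groups. In naive cells, Mcl1 made up a median of 78.1% of their summed TPM, Bcl2 14.3% and Bcl2a1b 4.54%. In the day 12 lymph node, Bcl2a1b made up 58.8%, Mcl1 33.9% and Bcl2 0.909%. The shares in naive and day 12 cells did not overlap for any of these 3 genes. In skin, Bcl2a1b made up 77.6 to 85.4% in all 4 libraries, skin 4 included, and Bcl2 at most 0.681%. Bcl2a1b was also the largest share by median in liver (74.5%, range 29.5 to 79.6%) and tumor (69.9%, range 65.8 to 74.1%). Liver overlapped skin. Spleen (44.7%) and lung (44.5%) had the lowest median shares of Bcl2a1b after naive cells. The summed level was 258 TPM in naive cells, 257 TPM in spleen, 503 TPM in tumor and 1580 TPM in skin (medians of 4). Skin 4 did not share the high sum: it held 279 TPM, within the naive range of 244.5 to 280.1 TPM. Spleen 4 held 479 TPM. These are shares of RNA and not of protein, and of the A1 copies they count Bcl2a1b alone. Bcl2a1b was a median of 84.1% of the summed TPM of the 4 copies in naive cells. The same median was 53.9% in the day 12 lymph node, 63.8% in spleen, 58.6% in skin and 53.6% in tumor. The shares and sums above thus leave out more A1 signal in those groups than in naive cells.

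**Figure D3:**
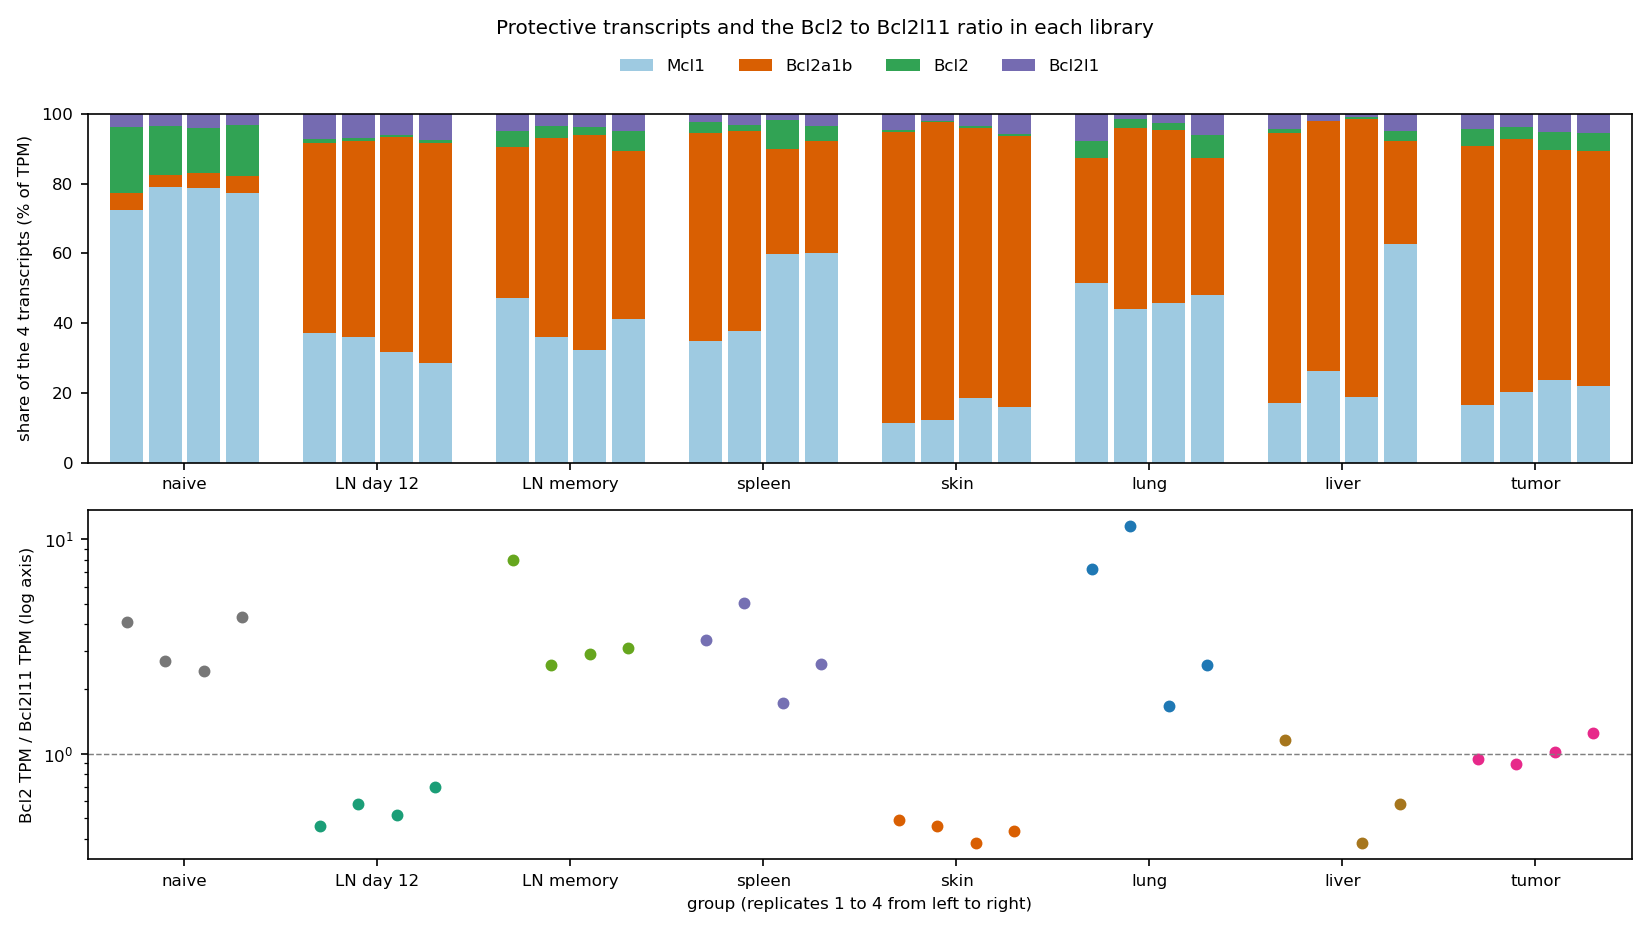
Upper panel: share (% of TPM) of Mcl1, Bcl2a1b, Bcl2 and Bcl2l1 among the 4 transcripts in each of 32 libraries, replicates 1 to 4 from left to right. Lower panel: ratio of Bcl2 to Bcl2l11 TPM on a log axis with a dashed line at equal levels; liver 2, at 0 for both, has no point, and all 4 day 12 and all 4 skin libraries lie below the line.

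Of the effectors, Bax (chr7:45461697-45466898, minus strand) was the more abundant. It ranged from 71.4 TPM (skin 4) to 338 TPM (liver 1), and its group means lay between 144 ± 16.9 TPM in naive cells and 238 ± 57.9 TPM in lung (SD, n = 4). No pair of groups differed for Bax. Bak1 (chr17:27019810-27029009, minus strand) was listed far lower, at 0.90 to 1.41 TPM in naive cells, 2.29 to 4.69 TPM in the day 12 lymph node, 1.82 to 3.55 TPM in tumor and 0.14 to 1 TPM in skin. Its day 12 level did not overlap with naive, skin, lung or liver libraries, and Bak1 was lower than on day 12 by the test in skin (skin minus day 12, -1.47, SE 0.36, adjusted p = 0.00435), lung (-1.15, 0.0406) and liver (-1.09, 0.0239). At these levels the change on the log2(TPM + 1) scale understates the ratio, and Bak1 overlaps Ggnbp1 on the opposite strand, from which unstranded reads could not be separated. In all, 5 of the 10 members overlap another annotated gene. Bid overlaps Bcl2l13, and Bcl2 overlaps D630008O14Rik, on the opposite strand, and both also overlap genes on their own strand. Bax overlaps Gm45808 and Bcl2a1b overlaps Gm29094 on the same strand.

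Among the BH3-only members, Bcl2l11 (chr2:128126038-128162547, plus strand) had its highest group mean in tumor, at 31.1, 19.7, 25.0 and 12.6 TPM. No pair of groups differed for it by the test. Liver libraries held 7.37, 0, 8.40 and 27.2 TPM, so liver overlapped tumor through liver 4. Naive libraries held 12.9, 12.8, 12.9 and 9.15 TPM, and day 12 libraries 8.01, 6.54, 5.05 and 5.25 TPM. Spleen (1.63, 0.97, 11.7 and 7.73 TPM) lay wholly below tumor, and skin (23.2, 12.2, 19.5 and 4.35 TPM) overlapped both. The pattern followed Bcl2 within groups (Pearson r = 0.876 over 32 libraries after group means were removed, a description of libraries that share depth and cell make-up). It did so less over the 32 libraries as they stand (0.552) and over the 8 group means (0.297). Bid also followed Bcl2 within groups (0.822). Liver 2, which listed Bcl2, Bcl2l11 and Bid at 0, is part of these values.

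The ratio of Bcl2 to Bcl2l11, both in TPM, ran from 2.42 to 4.31 in naive cells, from 0.458 to 0.697 in the day 12 lymph node and from 2.59 to 7.98 in lymph node memory. Naive and memory cells thus held more Bcl2 than Bcl2l11 RNA in every library, and day 12 cells less. It ran from 0.383 to 0.490 in skin, with skin 4 inside that narrow range, from 0.893 to 1.25 in tumor, from 1.71 to 5.04 in spleen and from 1.66 to 11.5 in lung. In the 3 liver libraries with a ratio it ran from 0.382 to 1.15, overlapping both skin and tumor. Every skin library lay below every tumor library and every spleen library. The ratio was formed after earlier results of these data were known and is given without a test.

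Bid (chr6:120891930-120916853, minus strand), which is cleaved by caspase 8 and links death receptors to mitochondria, held 18.3 to 23.9 TPM in naive cells, 20.4 to 26.2 TPM in the day 12 lymph node, 20.7 to 34.8 TPM in lymph node memory and 15.9 to 25.6 TPM in tumor. Skin libraries were lower, at 5.88, 12.01, 14.3 and 2.20 TPM, and liver libraries were 17.2, 0, 1.17 and 30.8 TPM. Skin lay below tumor without overlap, but the difference (tumor higher by 1.34, SE 0.71) had an adjusted p of 0.323. All 4 pairs that passed for Bid involved liver, where liver 2 and liver 3 had the lowest levels of the series.

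Bbc3 (chr7:16308393-16318205, plus strand), a BH3-only gene induced by p53 and FOXO factors, formed a high and a low set of groups. It was low in naive cells (5.85, 7.02, 7.03 and 6.14 TPM), the day 12 lymph node (3.97, 4.02, 5.20 and 4.85 TPM) and tumor (7.43, 4.63, 3.74 and 4.09 TPM). It was high in lymph node memory (90.9, 61.5, 28.2 and 20.04 TPM), spleen (28.2, 36.7, 24.6 and 32.4 TPM) and lung (85.9, 43.7, 56.2 and 95.05 TPM). None of these high libraries overlapped the 12 libraries of the low groups. Skin (20.4, 26.9, 25.4 and 6.69 TPM) and liver (45.5, 7.56, 16.2 and 15.7 TPM) had group means between those of the high and low sets. Skin 1, skin 2, skin 3 and liver 1 lay within the range of the high libraries, and skin 4 within that of the low ones. Liver 2 lay just above the low libraries. Neither group differed from spleen by the test (adjusted p = 0.426 for skin and 0.238 for liver). In the order lung, lymph node memory, spleen, skin, liver, naive, tumor and day 12 lymph node, only the step from liver to naive passed (1.30, SE 0.46, adjusted p = 0.0263).

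Pmaip1, a BH3-only gene whose product binds Mcl1 and A1, was lowest in naive cells, at 1.97, 3.03, 2.13 and 2.55 TPM. It was highest in liver (169.6, 160.2, 40.5 and 83.8 TPM) and skin (141, 110.3, 91.0 and 39.6 TPM). Day 12 libraries held 25.7, 27.6, 21.7 and 23.7 TPM, lymph node memory 17.2, 16.2, 17.3 and 11.9 TPM, and tumor 20.7, 18.1, 23.6 and 14.9 TPM. Naive cells lay below all other libraries, and all skin and liver libraries lay above all lymph node and tumor libraries. Lung (56.6, 30.6, 9.63 and 63.3 TPM) and spleen (6.74, 9.60, 9.66 and 42.3 TPM) each had 1 library apart, lung 3 below and spleen 4 above the rest. Over the 32 libraries Pmaip1 followed Bcl2a1b (Pearson r = 0.808, 0.882 over the 8 group means and 0.336 within groups, given as descriptions).

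**Figure D4:**
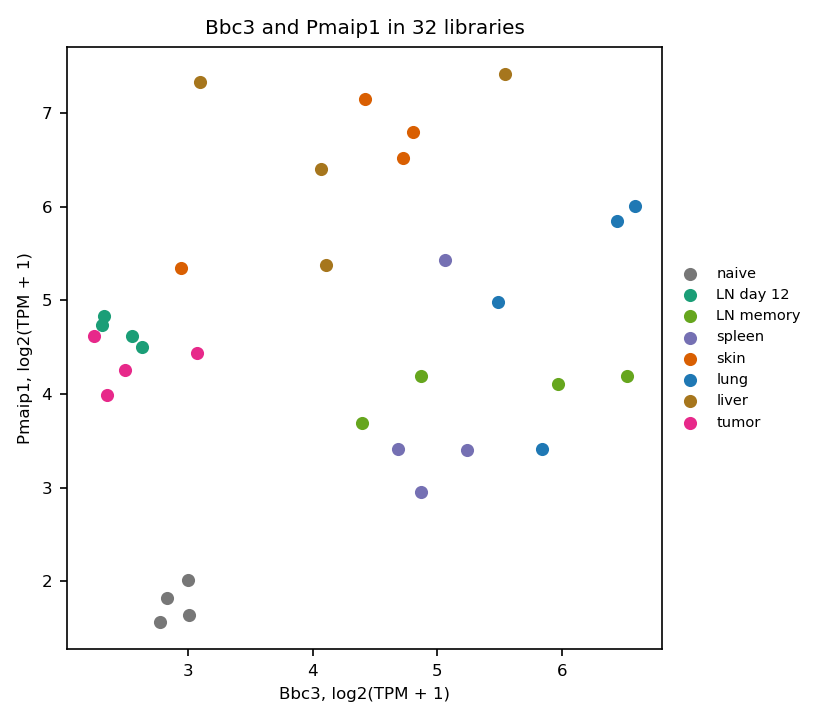
Pmaip1 against Bbc3 in 32 libraries, both in log2(TPM + 1), coloured by group. Naive libraries were low for both genes, day 12 and tumor libraries lay together at low Bbc3 (3.74 to 7.43 TPM) with Pmaip1 between 14.9 and 27.6 TPM, and all lymph node memory, spleen and lung libraries lay at higher Bbc3 (20.04 TPM or more).

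The first comparison asked how cells in the tumor-draining lymph node on day 12 differed from naive cells. Bcl2 fell by 3.17 (SE 0.61, adjusted p = 0.000408), Bcl2a1b rose by 4.27 (SE 0.45, adjusted p = 5.51e-08) and Pmaip1 rose by 2.91 (SE 0.51, adjusted p = 0.000143). A protective gene fell while another protective gene and a BH3-only gene rose. These were 3 of 10 members, against 11.1% of all genes tested; 9 of 10 members, all but Bid, did not overlap between the groups, against 51.3% of all genes. The differences for Bcl2l1 (1.45, adjusted p = 0.0648) and Bak1 (1.06, 0.055) did not pass, nor did those for Mcl1 (-0.57, 0.507), Bcl2l11 (-0.85, 0.547), Bbc3 (-0.45, 0.653), Bax (0.36, 0.6) or Bid (0.15, 0.975). The test pools the spread over all 8 groups: with these 2 groups fitted alone, or with a weight per group, 9 members passed. The share of all genes passing in those fits was not recorded, so this count does not set the members apart from other genes.

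Other genes of the pathway were counted from lists chosen with earlier results known. Of the other Bcl2 family genes, 2 of 9 tested rose and 0 fell, Bcl2a1d (6.03, adjusted p = 7.16e-11) and Bcl2a1c (2.32, 0.0022). Of 14 p53 target genes, Cdkn1a, a cell cycle inhibitor (3.55, 1.36e-06), and Sesn2 (1.26, 0.0397) rose and Sesn1 fell by 3.41 (0.00409). Of 20 cytokine and transcriptional inputs, Il2rb (3.15, 0.000597) and Akt1 (2.23, 0.00495) rose, and Il7r, the receptor that sustains Bcl2, fell by 2.13 (0.000556), 1 of 2 that fell. The medians of these 3 lists were 0.22, -0.21 and -0.40 in that order, beside -0.19 for all genes.

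Spleen cells were compared with naive spleen cells. Bcl2a1b rose by 3.25 (SE 0.45, adjusted p = 1.45e-05), Bbc3 by 2.06 (SE 0.46, adjusted p = 0.00427) and Pmaip1 by 2.04 (SE 0.51, adjusted p = 0.0127). These were 3 of 10 members, against 6.08% of all genes; 5 of 10 did not overlap, against 19.6%. Bcl2 was lower in every spleen library than in every naive one, but the difference (-1.79, SE 0.61) had an adjusted p of 0.0792. Without spleen 4, the Bcl2 difference was -2.09 (adjusted p = 0.0474) and that of Pmaip1 was 1.49 (0.0642). Without spleen 3, that of Bcl2 was -2.09 (0.049); fitted with only these 2 groups, Pmaip1 had an adjusted p of 0.0654. Bik, another BH3-only gene, rose as well (1.87, 0.0427), and with Bcl2a1d (3.98, 4.61e-07) made 2 of 9 other family members; Cdkn1a (3.52, 4.25e-06) and Perp (2.66, 0.0142) were the 2 of 14 p53 targets, Akt1 (1.98, 0.0222) was the single input of 20, and 0 of 13 genes of the mitochondrial death steps passed.

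Lymph node memory cells were then compared with day 12 lymph node cells, as separate sets of libraries. Bbc3 was higher in memory by 2.98 (SE 0.46, adjusted p = 9.11e-05) and Bcl2 by 2.19 (SE 0.61, adjusted p = 0.0225), 2 of 10 members against 7.41% of all genes. Bcl2a1b did not differ by the test (0.14, SE 0.45, adjusted p = 0.939). Pmaip1 was lower in every memory library, at 11.9 to 17.3 TPM against 21.7 to 27.6 TPM, but its difference (-0.63, SE 0.51) had an adjusted p of 0.563. In all 3 members, Bbc3, Bcl2 and Pmaip1, did not overlap, against 37.4% of all genes. The call for Bcl2 was kept in 9 of 17 alternatives: leaving out any 1 of the 4 day 12 libraries, or memory 1 or memory 2, gave adjusted p-values of 0.0501 to 0.0744 with differences of 2.05 to 2.23, a pseudocount of 0.1 gave 2.46 (0.131) and quantile normalization 1.61 (0.0568). Il7r was higher in memory as well (3.41, 4.76e-06), the single one of 20 inputs. So were Btg2 by 2.01 (0.00193, 1 of 14) and Bik by 1.93 (0.0322, 1 of 9).

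Lymph node memory and spleen cells differed in 0 of 10 members by limma, against 0.481% of all genes. Before adjustment, 2 of 10 members, Bcl2l1 and Bcl2a1b, were under 0.05 by limma (0.00797 and 0.0165), as were 1916 of all 19738 genes. These 2 members did not overlap between the groups, against 5.39% of all genes. Bcl2l1 was higher in lymph node memory by 1.45 (SE 0.51, adjusted p = 0.27) and Bcl2a1b by 1.16 (SE 0.45, adjusted p = 0.357). Without the 6 libraries low in T cell identity genes, spleen 4 among them, both passed (1.82, adjusted p = 0.00953, and 1.29, 0.00254), as did Mcl1 (0.995, 0.0151). No gene of the 4 other lists passed.

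Skin cells were compared with spleen cells. Bcl2a1b was higher by 2.89 (SE 0.45, adjusted p = 6.98e-05), Pmaip1 by 2.65 (SE 0.51, adjusted p = 0.000879) and Bcl2l1 by 2.33 (SE 0.51, adjusted p = 0.00325). Those 3 of 10 members stood against 7.68% of all genes; 2 of 10, Bcl2a1b and Bak1, did not overlap, against 9.09%. Bak1 (-0.97, adjusted p = 0.11), Bid (-1.79, 0.137) and Bcl2l11 (1.48, 0.243) did not pass. Without the 6 libraries low in T cell identity genes, the 3 calls were kept and Mcl1 (1.23, 0.00232), Bcl2l11 (2.21, 0.00928) and Bak1 (-1.24, 0.0239) passed too. With only these 2 groups in the fit, the 3 calls were lost (adjusted p = 0.0804, 0.0849 and 0.112). Summed keratinocyte genes were 119.6 to 2458 TPM in skin and 12.7 to 19.2 TPM in spleen, and their part in these differences was not tested.

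Among the other genes, Bcl2a1d (3.71, 1.28e-06) and Bcl2a1c (2.94, 0.000266) were the 2 of 9 family members higher in skin. Cdkn1a (5.47, 3.05e-09), Perp (4.64, 2.5e-05) and Btg2 (2.17, 0.000735) were the 3 of 14 p53 targets. Il2ra (1.86, 0.0129) and Pim1 (1.84, 0.00684) were higher and Il7r lower by the test (-2.09, 0.00128) among 20 inputs, and 0 of 13 death-step genes passed.

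Lung and spleen cells differed in 0 of 10 members by limma, against 0.111% of all genes. Before adjustment, Bbc3 and Pmaip1 were under 0.05 by limma (0.0194 and 0.0201), as were 1457 of all 19738 genes. A single member, Bbc3, did not overlap, against 1.82% of all genes. Bbc3 was higher in lung by 1.13 (SE 0.46, adjusted p = 0.488) and Pmaip1 by 1.26 (SE 0.51, adjusted p = 0.495). Without the 6 libraries low in T cell identity genes, Pmaip1 (1.80, 0.0102) and Mcl1 (0.93, 0.0367) passed. Cdkn1a was the single gene of the 4 other lists to pass (2.22, 0.0383).

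Liver cells were compared with spleen cells (median of all genes -0.53). Pmaip1 was higher by 2.83 (SE 0.51, adjusted p = 0.000843) and Bcl2a1b by 1.65 (SE 0.45, adjusted p = 0.0188), and Bid was lower by the test (-2.24, SE 0.71, adjusted p = 0.0358). These 3 of 10 members stood against 13.6% of all genes, and 0 of 10 were free of overlap, against 7.17%. Without the 6 libraries low in T cell identity genes, which leaves 1 liver library assumed to vary like the other groups, Bid was at -0.28 (0.838) and Pmaip1 at 4.16. The call for Bid was also lost without liver 2 (-1.39, 0.186), liver 3 (-1.76, 0.098), spleen 2 (-2.15, 0.0664), spleen 3 (-2.37, 0.0536) or spleen 4 (-1.89, 0.102), under quantile normalization (-1.94, 0.0646), group weights (0.186) and no filter (0.0732). That for Bcl2a1b was lost without spleen 3 (1.42, 0.0628) and under group weights (0.265), and all 3 calls with only these 2 groups in the fit (0.302 to 0.455). Differences for Bbc3 passed without liver 1 (-1.21, 0.0426) and for Bcl2 without liver 4 (-1.74, 0.044), but changed sign to 0.61 and 0.027 without the 6 libraries low in T cell identity genes. Summed genes of hepatocytes were 706 to 24720 TPM in liver, and their part was not tested.

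Of the related genes, Bcl2a1c (1.51, 0.0491) and Bcl2a1d (1.36, 0.0435) were higher in liver, 2 of 9 family members. Cdkn1a (3.42, 2.57e-05) and Btg2 (2.03, 0.00245) were higher and Aen lower (-1.34, 0.0187) among 14 p53 targets. Aifm1 was lower (-1.79, 0.0245; 1 of 13), as were Jak3 (-1.77, 0.048), Stat5a (-1.49, 0.0469) and Trp53 (-1.22, 0.03) among 20 inputs.

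Cells from tumor were compared with spleen cells. Bbc3 was lower in tumor by the test (-2.42, SE 0.46, adjusted p = 0.000771), with 4.97 ± 1.68 TPM against 30.5 ± 5.23 TPM (SD, n = 4) and no overlap. It was the single member of 10 to pass, against 6.25% of all genes, and passed in all 17 alternatives; 3 of 10 did not overlap (Bbc3, Bcl2a1b and Bcl2l11), against 14.7%. Bcl2l11 moved the other way, higher in every tumor library, by 2.17 (SE 0.70, adjusted p = 0.0615), as were Bcl2a1b by 1.46 (SE 0.45, adjusted p = 0.0517) and, with overlap, Bcl2l1 by 1.45 (SE 0.51, adjusted p = 0.092). Each of the latter passed without 1 library: Bcl2l11 without spleen 3 (2.63, 0.0334), Bcl2l1 without spleen 4 (1.82, 0.0362) and Bcl2a1b without tumor 4 (1.68, 0.0431). Bcl2a1b also passed with the 4 copies summed (1.75, 0.0121). Without the 6 libraries low in T cell identity genes 5 members passed, and the share of all genes in that fit was not recorded.

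Among the related genes in tumor, Bcl2a1d (2.49, 0.000501) was higher, 1 of 9 family members. Perp (3.54, 0.000969) and Cdkn1a (2.09, 0.00375) were higher among 14 p53 targets, of which 2 were lower, led by Btg2 (-1.99, 0.00234). Among 20 inputs, 3 were lower, led by Il7r (-4.32, 3.68e-08) and Foxo1 (-1.88, 0.00863), and Il2ra was higher (2.23, 0.0033). Il7r held 7.54 ± 4.18 TPM in tumor and 157.5 ± 27.0 TPM in spleen (SD, n = 4), while Bcl2 held 22 ± 6.40 and 12.7 ± 8.63 TPM and did not differ by the test (0.96, SE 0.61).

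Skin and tumor cells were compared directly. Pmaip1 was higher in skin by 2.13 (SE 0.51, adjusted p = 0.00774), in 4 of 4 libraries and in all 17 alternatives, and Bbc3 by 1.68 (SE 0.46, adjusted p = 0.0185). They were 2 of 10 members, against 7.34% of all genes; 4 of 10 did not overlap (Pmaip1 higher and Bcl2, Bak1 and Bid lower in skin), against 15.5%. Bcl2 (-1.74, 0.0829), Bak1 (-1.14, 0.0503), Bid (-1.34, 0.323) and Bcl2a1b (1.43, 0.0504) did not pass. Without skin 4, Bcl2a1b was at 2.10 (0.000224), Mcl1 at 1.27 (0.0293) and Bak1 at -1.26 (0.0397), each past the threshold. The call for Bbc3 was lost without skin 1 (1.62, 0.0542), skin 2 (1.49, 0.0793), skin 3 (1.51, 0.0629), tumor 3 (1.58, 0.0611) or tumor 4 (1.62, 0.0525), and with only these 2 groups in the fit (0.0586).

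Skin also exceeded tumor in 5 of 14 p53 targets, with Btg2 (4.16, 4.19e-08), Cdkn1a (3.38, 6.37e-06) and Trp53inp1 (3.11, 0.00038) the furthest apart, a list whose median was 1.09 beside -0.09 for all genes. Il7r (2.23, 0.000694), Pim1 (1.96, 0.00399) and Foxo3 (1.66, 0.0247) were the furthest of 4 of 20 inputs that were higher. Cycs, cytochrome c, was lower in skin (-1.10, 0.027), and 0 of 9 other family members passed.

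**Figure D5:**
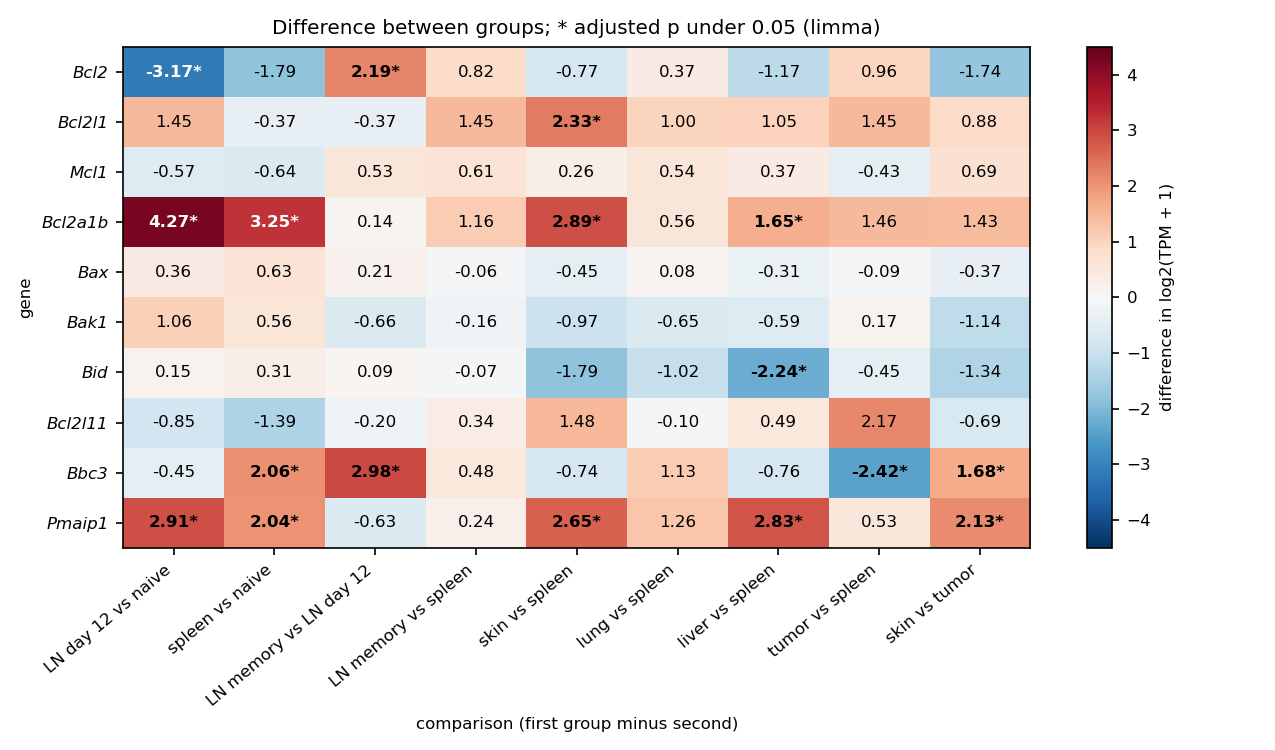
Difference in log2(TPM + 1) between groups (first minus second named on the horizontal axis) for each of the 10 members; red is higher and blue lower, and an asterisk marks limma's adjusted p under 0.05. Bax, Mcl1, Bak1 and Bcl2l11 carry no asterisk in the 9 comparisons, and Pmaip1 carries the most, at 5.

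The 9 comparisons share groups, spleen in 6 of them, so calls in the tissues against spleen are not independent of each other. Among the 7146 genes searched, those whose levels most resembled each of 4 members over the 32 libraries were as follows. For Bcl2 they were Ddx60 (Pearson r = 0.873), Erap1 (0.868) and Irf9 (0.862), genes known from the interferon response and antigen trimming. For Bcl2a1b they were Bcl2a1d (0.968), Litaf (0.962) and Ifng (0.92). For Mcl1 they were Mknk1 (0.838), Dhx40 (0.834) and Cd84 (0.831), and for Bbc3 Gabarapl2 (0.881), Cdc42ep3 (0.879) and Atp2b1 (0.837). Ifng held 0.158 ± 0.123 TPM in naive cells and 1812 ± 1086 TPM in skin (SD, n = 4), the lowest and highest groups of Bcl2a1b as well. The resemblance is one of level over libraries that share groups, depth and cell make-up, and within groups it was weaker for Bcl2a1b and Ifng (0.611) than for Mcl1 and Cd84 (0.909).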

How the data were processed

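Bulk RNA-seq of 32 libraries was used from 1 table of expression values. Per the labels' protocols, libraries followed standard Illumina methods; Bowtie and mm10 are named in the submitters' processing notes, and no source used here states the version, annotation or counting. The values deposited by the authors are natural logs, ln(TPM + 1): back-transformed, each library summed to between 999999.06 and 1000000.8. TPM keeps no depth, so depth is unknown and no counting interval is given. Every column matched 1 sample by name, the tumor and skin columns with an added prefix or suffix.

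From these, log2(TPM + 1) was tested for 19738 genes with at least 1 TPM in 4 libraries, by limma 3.58.1 (trend) in R 4.3.3, with 8 groups in 1 fit (24 residual degrees of freedom) and Benjamini-Hochberg adjustment over all genes tested. The design allowed for counts or normalized values, and the second was used. All 10 members are named, and from each related list up to 3 genes by size of change among those past 0.05 in a comparison. Alternatives were no filter, a filter of 5 TPM, a pseudocount of 0.1, only the 2 groups compared, a replicate block, group weights, quantile normalization, leaving out the 6 libraries low in T cell identity genes or each library in turn, and, added after seeing the data, summed Bcl2a1 copies. The script was tested on simulated data. Promoter windows came from RefSeq (GRCm38.p6), positions from GENCODE vM21. The members and lists were chosen with earlier results of these data known. One gene of the death-step list, and counts that rest on it, are not reported here.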

Additional observations from a re-analysis of the deposited data

Results flagged for a closer look

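In each of the 80 sets of 4 libraries (10 members in 8 groups), a library was singled out where its gap to the nearest other library as a share of the range of the set exceeded Dixon's critical value. There were 6 such libraries, and chance alone marks about 1 in 20 sets.

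Bcl2 was 2.61 TPM in day 12 lymph node replicate 3, against 3.66 to 3.81 TPM in the others. Bcl2l11 was 9.15 TPM in naive replicate 4, against 12.78 to 12.92 TPM. Pmaip1 was 11.93 TPM in lymph node memory replicate 4, against 16.23 to 17.27 TPM. In these 3 sets the other libraries were close together. Mcl1 was 320.09 TPM in liver replicate 4, against 130.2 to 136.6 TPM, and Bax was 71.4 TPM in skin replicate 4, against 198.8 to 233.8 TPM; both are libraries low in T cell identity genes. Bax was 291.78 TPM in tumor replicate 1, against 180.7 to 194.3 TPM.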

How the results depend on the processing

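The share of all genes called was recorded for the fit reported only, so counts under other settings do not compare the members with other genes. Counts of members called, for the comparisons in which a setting moved them by over 1.5 times, were as follows. A filter of 5 TPM gave 2 for tumor against spleen, where 1 was called, and summed Bcl2a1 copies gave 2. A pseudocount of 0.1 gave 1 for lymph node memory against day 12, where 2 were called. With only the 2 groups in the fit, 9 were called for day 12 against naive (3 before), 0 for skin and 0 for liver against spleen (3 each), 2 for tumor against spleen and 1 for skin against tumor (2). Group weights gave 9, 4 (memory against day 12), 1 (liver), 4 (tumor against spleen) and 4 (skin against tumor). Quantile normalization gave 5 for day 12 against naive, 1 for memory against day 12, 4 for tumor against spleen and 4 for skin against tumor. Without the 6 libraries low in T cell identity genes the counts were 5 for day 12 and 7 for spleen against naive, and 3 for lymph node memory, 6 for skin, 2 for lung and 5 for tumor against spleen, and 6 for skin against tumor. Leaving out 1 library at a time gave 3 to 3, 3 to 4, 1 to 2, 0 to 0, 3 to 3, 0 to 0, 1 to 4, 1 to 2 and 1 to 5 for the comparisons in the order of the text, and 6 to 8 for the F test.

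None of the differences that changed sign had passed in the fit reported. Under quantile normalization these were Bid, memory against day 12 (-0.13), Pmaip1, memory against spleen (-0.048), and Bax, tumor against spleen (0.12). Without those 6 libraries they were Bid, spleen against naive (-0.036) and memory against spleen (0.28), Bcl2l11, lung against spleen (0.18), Bcl2 (0.027), Bax (0.56) and Bbc3 (0.61), liver against spleen, and Mcl1, tumor against spleen (0.13). With copies summed, Bcl2a1b was at -0.024 for memory against day 12. Leaving out 1 library, values spanned 0 for memory against spleen in Bak1 (-0.36 to 0.069), Bax (-0.18 to 0.10), Bcl2l11 (-0.093 to 0.80), Bid (-0.40 to 0.28) and Pmaip1 (-0.040 to 0.79). They did so for lung against spleen in Bax (-0.074 to 0.24) and Bcl2l11 (-0.56 to 0.39), for Bax in skin against tumor (-0.54 to 0.023) and tumor against spleen (-0.25 to 0.076), for Bcl2l11 in liver against spleen (-0.19 to 1.41), for Bid in memory against day 12 (-0.044 to 0.20) and spleen against naive (-0.036 to 0.64), and for Mcl1 in skin against spleen (-0.086 to 0.84). The causes were not tested.

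Of 36 correlations between same-number libraries, taken after group means were removed, 10 were over 0.1, and in 0 of 9 comparisons were all of them. Low correlations cannot exclude that libraries of one number share an animal or a batch, so whether the numbers pair the samples is not known. With the replicate block, tumor against spleen had 2 calls, the added one being Bcl2a1b (adjusted p = 0.0309), which also passed in skin against tumor (0.0313).

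Depth is unknown, so a level near 0, as for Bak1 or for liver 2, has no stated precision. Calls against spleen rest on a spread pooled over 8 groups that differ in spread.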
